A study of Mus musculus with 8 samples.

Results

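The comparison described here set sorted midbrain dopaminergic (mDA) neurons of the ventral tegmental area (VTA) of Pitx3-null pups against those of wild-type pups. The VTA WT group carried the genotype Pitx3+/+;Th-EGFP+/- and the VTA KO group Pitx3-/-;Th-EGFP+/-, both on C57Bl/6 and both aged P1 to P4. All pups therefore carried 1 copy of the TH-EGFP transgene, in which the tyrosine hydroxylase promoter drives EGFP, and live EGFP+ cells that excluded propidium iodide were sorted from the dissected VTA. Frozen batches of sorted cells were pooled until enough RNA was at hand, and each group was measured in duplicate on Affymetrix Mouse Gene 1.0 ST arrays after linear amplification. No source used here says whether the duplicates of a group held cells of separate animals, and the p-values therefore cover the spread between these pools alone, which may be technical. The comparison used 4 of the 8 arrays of the series, and the other 4 held cells of the substantia nigra compacta (SNc) of the same genotypes. Members were the probesets with 1 gene symbol and a group mean no lower than 60 in linear units (5.91 in log2 units) in VTA WT or VTA KO. There were 14435 of them among 35512 probesets, for 13059 genes, and a gene with several probesets was read from the one of highest mean. Of the member probesets 13340 were over the minimum in both groups, 681 in VTA WT only and 414 in VTA KO only. Ccdc187 lay just inside the minimum with means of 5.91 and 5.88 in VTA WT and VTA KO, and Foxs1 just outside it with 5.91 and 5.84.

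Pitx3 is a homeodomain transcription factor that, in the brain, is made in mDA neurons. It works with the nuclear receptor Nr4a2 on genes of dopamine synthesis and transport, and neurons of the ventral SNc need it to survive. The VTA, which projects to the ventral striatum and cortex, holds neurons with and without Pitx3. By the study, VTA neurons that would express Pitx3 are still intact at birth in Pitx3-/- mice and die in the months after. The comparison asks which genes differ between Pitx3-/- and wild-type VTA neurons at P1 to P4.

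Values are log2 RMA signals. The median of an array was 6.11 to 6.24, and 55.0% to 58.9% of an array's probesets were brighter than 60 in linear units. The VTA KO arrays stood furthest apart, with a standard deviation between arrays of 0.376 against 0.241 to 0.252 in the other groups. Each VTA KO array is therefore given separately below, except for a few genes given as averages. The Pitx3 probeset read 8.10 and 7.84 in VTA WT and 8.08 and 7.92 in VTA KO, and the groups overlapped. Which part of the gene was deleted, and which part was probed, is not stated in any source used here, and this probeset therefore did not check the labels. The identity of the sorted cells was read from defining markers. Th was at 10.17 and 10.10 in VTA WT and at 10.16 and 10.34 in VTA KO, Ddc and Nr4a2 were over 9.9 in every VTA array, and Slc6a4, Tph2 and Dbh, which define serotonergic and noradrenergic neurons, were under the minimum in both groups. Markers of ciliated, glial and mural cells were also measured, and their values stand beside the results they move with.

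At an adjusted p under 0.05 (limma, Benjamini-Hochberg over the 22112 probesets tested), 2 probesets were higher in VTA KO (0.00904%) and 0 were lower (0.0%), while 2263 had an unadjusted p under 0.05. Of the 2, 1 measured follistatin (Fst) and the other has no gene symbol here. The count was 0 in each fit that left out an SNc array or a wild-type VTA array. It was 69 in the fit without VTA KO 1 and 69 in that without VTA KO 2, where the remaining array was assumed to vary like the other groups. The thresholds of the study were also applied, with limma's p in place of the local pooled error test: a fold of 1.5 or more with an unadjusted p no higher than 0.05, in genes whose signal reached 60. By these, 115 genes were higher in VTA KO (0.881% of the 13059) and 276 were lower (2.11%). Of these, 87 of the 115 and 194 of the 276 were over the minimum in both groups, and the rest passed it only through the group where they were higher. Without VTA KO 1 the counts were 237 and 475, and without VTA KO 2 they were 274 and 619. Both VTA KO arrays lay above both VTA WT arrays for 2143 genes (16.4%) and below them for 2984 (22.9%). In the text, "called" refers to the thresholds of the study, and adjusted p-values are limma's.

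The widest upward gaps of all members were those of Fgf10 and Fst, both secreted factors. Fst, a secreted protein that binds and blocks activins, was at 6.97 and 6.95 in VTA WT and at 8.44 in both VTA KO arrays. It rose by 1.48 ± 0.10 (SE) on the log2 scale, 2.79-fold (adjusted p = 0.0347). Its adjusted p ranged from 0.0299 to 0.432 over 17 alternative fits, in 6 of which it passed 0.05, and it did not pass in the fits that left out 1 SNc array or 1 VTA WT array. Fgf10, a fibroblast growth factor that signals through Fgfr2, was at 6.68 and 6.34 in VTA WT and at 8.18 in both VTA KO arrays. The difference was 1.67 ± 0.17, or 3.18-fold (adjusted p = 0.0656). Sulf1, an extracellular enzyme that removes sulfate from heparan sulfate chains, was at 7.68 and 7.79 in VTA WT and at 8.68 and 8.80 in VTA KO (adjusted p = 0.0827). The VTA KO arrays were alike in these genes, and Sulf1, with 0.12, showed the widest difference between them. Crhbp, a secreted protein that binds corticotropin-releasing hormone, was at 7.99 and 7.75 in VTA WT and at 8.81 and 9.12 in VTA KO (adjusted p = 0.238). Of the 35 member genes of activin, BMP and TGF-beta signalling, Fst alone was called (1 gene), against 0.881% of all member genes called higher. The receptor gene Bmpr1a read 7.18 and 7.25 in VTA WT and 7.52 and 7.78 in VTA KO, and the activin subunit gene Inhbb read 6.72 and 6.37 in VTA WT and 6.96 and 6.94 in VTA KO.

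Single channel and receptor genes were also higher in both VTA KO arrays. The lists of potassium channels and of voltage-gated channels, given further on, had members on both sides, with more above than below. Trpc5, a calcium-permeable cation channel opened downstream of Gq-coupled receptors, was at 7.42 and 7.57 in VTA WT and at 9.13 and 8.85 in VTA KO. The difference was 1.49 ± 0.13, or 2.81-fold (adjusted p = 0.0513). Grm8, a Gi/o-coupled metabotropic glutamate receptor, was at 6.86 and 7.01 in VTA WT and at 8.21 and 8.11 in VTA KO (difference 1.22 ± 0.11, adjusted p = 0.0513). Kcnk9, a background potassium channel that sets resting membrane potential, was at 9.01 and 9.31 in VTA WT and at 10.48 and 10.28 in VTA KO (difference 1.21 ± 0.15, adjusted p = 0.103). Htr2a, a Gq-coupled serotonin receptor, was at 6.90 and 7.01 in VTA WT and at 8.11 and 7.81 in VTA KO (adjusted p = 0.128). In each of these genes the lowest VTA KO array stood above the highest VTA WT array by more than either group's own spread. Trpc6, another channel of the same family, was lower, at 7.30 and 7.35 in VTA WT and 5.97 and 6.81 in VTA KO (adjusted p = 0.310).

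Ionotropic receptors for glutamate, GABA and glycine are the fast receptors of synaptic transmission. Of their 28 member genes both VTA KO arrays lay above both VTA WT arrays in 15 and below them in 1, against 16.4% and 22.9% of all member genes, and 4 were called higher, against 0.881%. The arrays overlapped in the rest, and 25 of the 28 were over the minimum in both groups. The median difference over the 29 measured genes was 0.210, against -0.021 over all measured genes. Without VTA KO 2 or without VTA WT 1, 2 were called. The NMDA receptor subunit gene Grin2a was at 6.53 and 6.51 in VTA WT and at 7.19 and 7.26 in VTA KO (adjusted p = 0.190). Grin3a, another NMDA receptor subunit, was at 8.09 and 8.21 in VTA WT and at 8.76 and 8.79 in VTA KO (adjusted p = 0.190). Gabrg1, a GABA-A receptor subunit, was the member below, with 7.64 and 7.63 in VTA WT and 7.12 and 7.34 in VTA KO. Slc32a1, the vesicular transporter for GABA and glycine, was at 8.18 and 8.14 in VTA WT and at 8.99 and 8.80 in VTA KO (difference 0.73, adjusted p = 0.185). Gad2, which makes GABA, was at 8.60 and 8.67 in VTA WT and at 9.30 and 9.08 in VTA KO. Of the 8 member markers of GABAergic neurons 3 lay above, 1 lay below and 1, Slc32a1, was called higher, and their median difference from VTA WT was 0.27 in VTA KO 1 and -0.055 in VTA KO 2. Their summed linear signal was 1133 and 1162 in VTA WT and 1648 and 1431 in VTA KO, and its part in the receptor result was not tested. In bulk RNA of sorted cells, fewer cells of a type and less RNA per cell cannot be told apart.

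**Figure D1:**
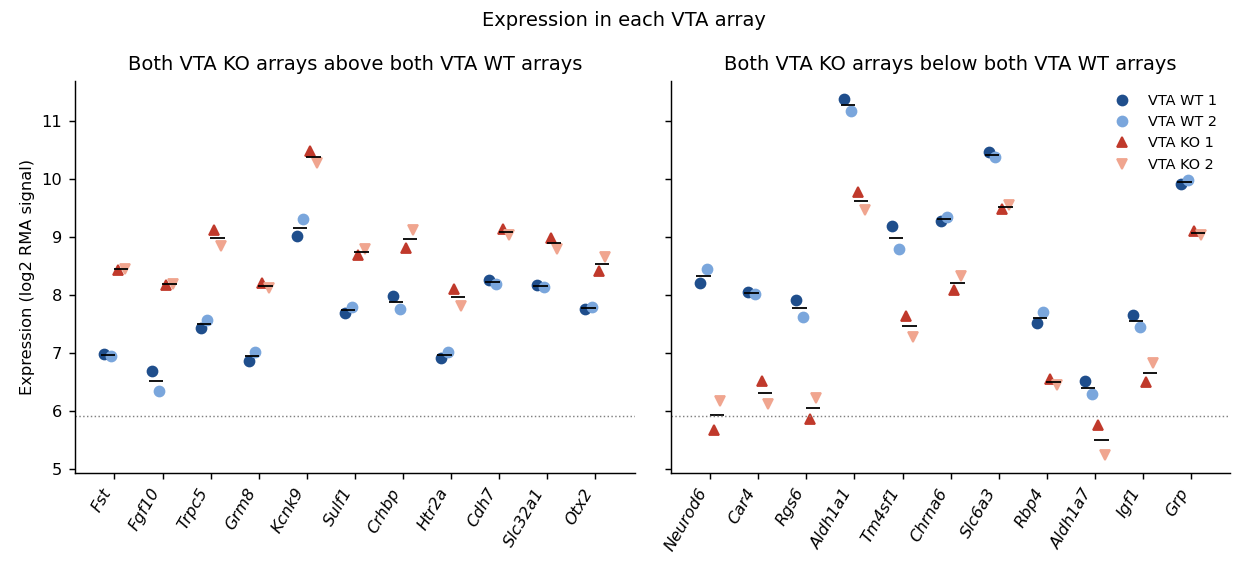
Log2 RMA signal of 22 named genes in each of the 4 VTA arrays, with circles for VTA WT, triangles for VTA KO, a black bar for each group mean and a dotted line at a linear signal of 60. In every gene shown both VTA KO arrays lie on the same side of both VTA WT arrays. Fst and Fgf10 read alike in the VTA KO arrays, whereas Neurod6 differed by 0.51 between them.

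Rgs6 and Aldh1a1, which the study ties to ventral SNc neurons, were called lower in VTA KO. Rgs6, a GTPase-activating protein that ends Gi/o signalling, was at 7.92 and 7.62 in VTA WT and at 5.86 and 6.23 in VTA KO. The difference was -1.73 ± 0.17, or 3.31-fold (adjusted p = 0.0656). Aldh1a1, which makes retinoic acid from retinaldehyde, was at 11.38 and 11.16 in VTA WT and at 9.78 and 9.45 in VTA KO (difference -1.65 ± 0.18, adjusted p = 0.0827). Its close relative Aldh1a7 was at 6.52 and 6.29 in VTA WT and at 5.76 and 5.24 in VTA KO, below the signal minimum (adjusted p = 0.235). Array probes of such near-identical paralogs can cross-hybridize, so the signals of the 2 genes are not fully separate. Rbp4, which carries retinol, was at 7.51 and 7.70 in VTA WT and at 6.55 and 6.45 in VTA KO (difference -1.11, adjusted p = 0.185). These were the 3 genes of the retinoic acid pathway that were called, out of 15 members, against 2.11% of all member genes called lower.

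Dopamine handling genes differed less, and not all of them. Slc6a3, the dopamine transporter, was at 10.46 and 10.37 in VTA WT and at 9.48 and 9.55 in VTA KO, a difference of -0.90 ± 0.13 or 1.86-fold (adjusted p = 0.176). Slc18a2, the vesicular monoamine transporter, was at 10.59 and 10.57 in VTA WT and at 10.19 and 9.96 in VTA KO. Drd2, the autoreceptor, was at 8.65 and 8.60 in VTA WT and at 8.13 and 8.23 in VTA KO. Ddc, which converts L-DOPA to dopamine, read 10.20 and 10.22 in VTA WT and 9.93 and 10.14 in VTA KO, lower by little and not called, and Th, given above, overlapped. Of the 13 genes of dopamine synthesis, storage and reuptake, 5 had both VTA KO arrays below both VTA WT arrays, 0 had them above and 1, Slc6a3, was called. Of all member genes 22.9% lay below and 16.4% above, and 2.11% were called lower. Of the 8 genes that the study names as Pitx3 targets, 6 lay below, 1 (Fgf10) lay above and Th overlapped. Bdnf, a neurotrophin, lay below by little, with 6.97 and 6.73 in VTA WT and 6.63 and 6.70 in VTA KO (adjusted p = 0.672). The study takes most of these targets from earlier work, but for members read from this profiling, Rgs6 among them, the direction is not independent evidence.

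Of 24 markers of the SNc and ventral SNc both VTA KO arrays lay below both VTA WT arrays in 15 and above them in 2, against 22.9% and 16.4% of all member genes. Of these markers 10 were called lower, against 2.11% of all member genes, and the count was also 10 without any 1 of the 4 VTA arrays. The median over the 26 measured genes was -0.43, and 20 members were over the minimum in both groups. The list holds genes that the study picked from these arrays, and its direction is therefore not independent evidence. Beside the genes above it included the nicotinic receptor subunit genes Chrna6, at 9.28 and 9.34 in VTA WT and 8.09 and 8.33 in VTA KO, and Chrnb3, at 10.51 and 10.28 in VTA WT and 9.56 and 9.77 in VTA KO. Igf1, an insulin-like growth factor, was at 7.65 and 7.44 in VTA WT and at 6.49 and 6.83 in VTA KO. Ndnf, a secreted neurotrophic factor, was at 7.47 and 7.72 in VTA WT and at 6.84 and 6.98 in VTA KO. Anxa1, which marks a ventral subset of SNc neurons, was at 6.93 and 6.77 in VTA WT and at 5.67 and 5.15 in VTA KO, below the minimum. The members above were Chrna4, a nicotinic subunit at 9.30 and 9.06 in VTA WT and 9.62 and 9.58 in VTA KO, and the matrix proteoglycan gene Vcan. Among the 9 nicotinic subunit genes Chrna3 was also lower, with 9.18 and 8.98 in VTA WT and 8.68 and 8.63 in VTA KO.

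Transcription factors of mDA neurons were split. Nr4a2, which activates Th, read 10.20 and 10.23 in VTA WT and 10.14 and 10.09 in VTA KO, a difference smaller than its standard error. Lmx1b, which specifies the lineage, and En1 and Foxa2, which maintain it, differed by less than 1.5 times their standard errors. Their adjusted p-values were 0.900, 0.735 and 0.677. Neurod6, a bHLH factor of VTA neurons, had the widest downward gap of all members, with 8.20 and 8.45 in VTA WT and 5.67 and 6.18 in VTA KO. The difference was -2.40 ± 0.27, or 5.28-fold (adjusted p = 0.0841). Sox6, a factor of ventral SNc neurons, was at 7.15 and 7.14 in VTA WT and at 6.56 and 6.85 in VTA KO (adjusted p = 0.319). Lmo3, a LIM-only cofactor, was at 9.73 and 9.43 in VTA WT and at 8.41 and 8.84 in VTA KO. Otx2, a homeodomain factor of ventral VTA neurons, was higher, with 7.76 and 7.79 in VTA WT and 8.41 and 8.65 in VTA KO (adjusted p = 0.310). Of the 32 members 7 lay above, 11 below, 1 was called higher and 3 lower. The same shares of all member genes were 16.4%, 22.9%, 0.881% and 2.11%.

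Markers of the VTA and dorsal SNc likewise lay on both sides: of 28 members 10 lay above and 7 below, with 4 called higher and 5 lower. The same shares of all member genes were 16.4%, 22.9%, 0.881% and 2.11%. The higher markers included Fst, Otx2 and Slc32a1. Postn, a matrix protein, was at 6.95 in both VTA WT arrays and at 7.51 and 7.67 in VTA KO. Calb1, a calcium-binding protein of neurons spared in many lesion models, was at 10.12 and 9.99 in VTA WT and at 10.33 and 10.39 in VTA KO (adjusted p = 0.569). On the other side Car4, a membrane-bound carbonic anhydrase, was at 8.06 and 8.02 in VTA WT and at 6.51 and 6.12 in VTA KO. Its difference was -1.73 ± 0.15, or 3.31-fold (adjusted p = 0.0513). Lpl, lipoprotein lipase, was at 7.29 and 7.91 in VTA WT and at 6.36 and 6.19 in VTA KO. Car4, Lpl, Neurod6, Grp and Nts were the 5 called lower.

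Neuropeptide genes were among them. Grp, gastrin-releasing peptide, was at 9.91 and 9.97 in VTA WT and at 9.10 and 9.02 in VTA KO (difference -0.88 ± 0.11, adjusted p = 0.119). Nts, neurotensin, was at 7.12 and 7.10 in VTA WT and at 5.46 and 6.08 in VTA KO, under the minimum as a mean. Crh, corticotropin-releasing hormone, was at 5.90 and 6.24 in VTA WT and at 5.04 and 4.94 in VTA KO, under the minimum. It passed the minimum only through VTA WT, where it was higher. Sst, somatostatin, was higher, with 8.34 and 8.13 in VTA WT and 9.50 and 8.91 in VTA KO. Of 31 genes for neuropeptides and secretory granule proteins, 8 lay below and 11 above, and 4 were called lower against 1 higher. Of all member genes 22.9% lay below and 16.4% above, and 2.11% were called lower and 0.881% higher. Peptide genes lay on both sides. Those below were Grp, Nts, Nmb, Crh, Npy, Pdyn, Penk and Gal, while Sst, Cck and Vip lay above.

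Of 13 cadherins, the calcium-dependent adhesion proteins, both VTA KO arrays lay above both VTA WT arrays in 9 and below them in 2, against 16.4% and 22.9% of all member genes, and 3 were called higher, against 0.881%. The median over the 16 measured genes was 0.201. Cdh7 was at 8.26 and 8.19 in VTA WT and at 9.14 and 9.03 in VTA KO (difference 0.85 ± 0.10, adjusted p = 0.0876). Cdh9 was at 7.77 and 7.71 in VTA WT and at 8.28 and 8.44 in VTA KO, and Cdh10 at 9.16 and 9.08 in VTA WT and at 9.88 and 9.81 in VTA KO. The lower members were Cdh8, at 10.67 and 10.58 in VTA WT and 10.24 and 10.04 in VTA KO, and Cdh11. Axon guidance genes showed no common direction, with 9 of 42 members above and 11 below. Dcc, the netrin receptor, was at 9.72 and 9.82 in VTA WT and at 9.07 and 9.13 in VTA KO (adjusted p = 0.176). Plxnc1, a semaphorin receptor, averaged 9.04 in wild-type and 9.63 in Pitx3-/- VTA, with no overlap between arrays.

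Other genes among the 30 with the widest gaps shared no list. Ppil6, a cyclophilin-like protein, was at 7.63 and 7.32 in VTA WT and at 5.61 and 5.67 in VTA KO (difference -1.83 ± 0.25, adjusted p = 0.138). Tm4sf1, a membrane protein abundant in vascular cells, was at 9.18 and 8.79 in VTA WT and at 7.64 and 7.28 in VTA KO (adjusted p = 0.128). Mgst1, a membrane-bound glutathione transferase, was at 6.33 and 6.15 in VTA WT and at 4.85 and 4.49 in VTA KO, below the minimum (adjusted p = 0.0746). These lower genes were separated in the same way, with the VTA KO arrays closer to each other than to either VTA WT array. Tmem207 averaged 6.87 in wild-type VTA and 5.56 in Pitx3-/- VTA, with no overlap between arrays (difference -1.31 ± 0.11, adjusted p = 0.0513). Calml4, a calmodulin-like protein that is also on the choroid plexus list, was at 8.16 and 8.22 in VTA WT and at 6.91 and 6.42 in VTA KO (adjusted p = 0.0841). Mrln, a small inhibitor of the calcium pump of the endoplasmic reticulum, was at 8.25 and 8.23 in VTA WT and at 7.01 and 7.10 in VTA KO (adjusted p = 0.190). Among the higher genes several were under the minimum in VTA WT. Met, the receptor for hepatocyte growth factor, was at 5.32 and 5.06 in VTA WT and at 6.91 and 6.09 in VTA KO (adjusted p = 0.256). The glycine receptor subunit gene Glra3 was at 5.25 and 4.94 in VTA WT and at 6.04 and 6.22 in VTA KO (adjusted p = 0.329). Trav7d-4 and Olfr1045 are members of the T cell receptor and odorant receptor families, whose probes may be shared. They averaged 4.55 and 4.47 in wild-type VTA and 6.96 and 6.38 in Pitx3-/- VTA. Over the alternative fits, their differences ran from 1.55 to 3.25 and from 1.54 to 2.27.

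Homeodomain factors of the bicoid type, Pitx3 among them, bind the motif TAATCC. On the other strand it reads GGATTA. The 250 bases before each gene's most upstream RefSeq start (GRCm38) were searched for it on both strands. It was present for 6.37% of the 27025 genes of the promoter table and for 5.33% of the 10384 member genes with a window. Of the genes called higher 8 of 88 with a window held it, and of those called lower 15 of 218 did, or 9.09% and 6.88%. Of the 30 genes with the widest gaps in either direction 24 had a window, and at least 2 of these held the motif. Genes of a single chromosome were left out of that last count. The windows of these 2 are shown because they hold the motif, which is in capitals, and each sequence is on the gene's own strand. A match describes the letters and is not a bound site.
Cdh7 (GRCm38, chr1:109982650-109982899, plus strand, motif 198 to 193 bases before the start): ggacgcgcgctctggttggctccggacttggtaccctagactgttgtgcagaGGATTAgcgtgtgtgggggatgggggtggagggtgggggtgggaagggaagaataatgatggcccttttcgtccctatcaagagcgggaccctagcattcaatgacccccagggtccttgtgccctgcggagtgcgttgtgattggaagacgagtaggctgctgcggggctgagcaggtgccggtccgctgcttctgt
Gsta3 (GRCm38, chr1:21240335-21240584, plus strand, motif 102 to 97 bases before the start): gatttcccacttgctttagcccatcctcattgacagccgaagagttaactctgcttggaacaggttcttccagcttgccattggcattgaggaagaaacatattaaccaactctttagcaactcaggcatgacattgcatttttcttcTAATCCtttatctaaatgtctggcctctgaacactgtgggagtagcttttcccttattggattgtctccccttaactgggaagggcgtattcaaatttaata
Cdh7 is the cadherin described above, with 3 listed starts of which the most upstream is shown. Gsta3, a glutathione transferase, was at 5.71 and 5.42 in VTA WT, under the signal minimum, and at 6.55 and 6.79 in VTA KO (adjusted p = 0.223).

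The 2 VTA KO arrays differed from each other by at least 2-fold in 307 genes, against 33 genes between the VTA WT arrays. VTA KO 2 was the lower in 164 of them and the higher in 143. VTA KO 1 was at least 1.5-fold above the VTA WT mean in 303 genes and below it in 721, and the same counts for VTA KO 2 were 264 and 572. Genes of pericytes and vascular smooth muscle, the mural cells of blood vessels, led the genes lower in VTA KO 2. Rgs5, a pericyte marker, was at 10.40 and 9.96 in VTA WT and at 10.29 in VTA KO 1, but at 6.22 in VTA KO 2. Myl9, a myosin light chain of smooth muscle, was at 8.79 and 8.36 in VTA WT, 8.92 in VTA KO 1 and 5.42 in VTA KO 2. Igfbp7, made by vascular cells, was at 8.61 and 8.42 in VTA WT, 8.60 in VTA KO 1 and 6.17 in VTA KO 2. Trps1, a GATA-type repressor, was at 8.11 and 8.47 in VTA WT, 8.30 in VTA KO 1 and 5.60 in VTA KO 2. A dimmer probeset of Trps1 showed no such drop, with 6.48 and 6.39 in VTA WT, 6.46 in VTA KO 1 and 6.39 in VTA KO 2. In the probesets of highest mean VTA KO 1 sat with the wild-type arrays and VTA KO 2 stood alone. All 10 pericyte and smooth muscle members were lower in VTA KO 2 than in VTA KO 1, against 6454 of all 13059 member genes. The median difference of the 10 from VTA WT was 0.087 in VTA KO 1 and -0.80 in VTA KO 2. Their summed linear signal was 2840 and 2165 in VTA WT, 2676 in VTA KO 1 and 734 in VTA KO 2. In SNc it was 973 and 896 in the wild type and 2273 and 2079 in the knockout. Pdgfrb, Des and Cnn1 of the same list were under the minimum in both groups.

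Genes that set VTA KO 1 apart were of another kind. Of 72 oxidative phosphorylation subunit genes, which encode the mitochondrial respiratory chain and ATP synthase, 8 were lower in VTA KO 2 than in VTA KO 1. Of all 13059 member genes 6454 were. The median difference of the 72 genes from VTA WT was -0.33 in VTA KO 1 and 0.015 in VTA KO 2. Ndufb6, a complex I subunit, was at 10.45 and 10.56 in VTA WT, 9.43 in VTA KO 1 and 10.53 in VTA KO 2. Ndufa6, another, was at 8.82 and 8.75 in VTA WT, 7.66 in VTA KO 1 and 8.79 in VTA KO 2. Here VTA KO 2 sat with the wild-type arrays. Mrpl13, a protein of the mitochondrial ribosome, was at 7.31 and 7.44 in VTA WT, 6.25 in VTA KO 1 and 8.13 in VTA KO 2. The small nucleolar RNA Snord47 was at 8.03 and 8.12 in VTA WT, 6.34 in VTA KO 1 and 8.90 in VTA KO 2. Trappc2, a subunit of a vesicle tethering complex, was at 8.22 and 8.62 in VTA WT, 6.47 in VTA KO 1 and 8.45 in VTA KO 2. Of the 72 genes 17 lay below and 2 above in both VTA KO arrays, where 22.9% of all member genes lay below and 16.4% above. Of the 72, 0 were called, against 0.881% of all member genes called higher and 2.11% called lower. The 2 arrays disagreed on this list.

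**Figure D2:**
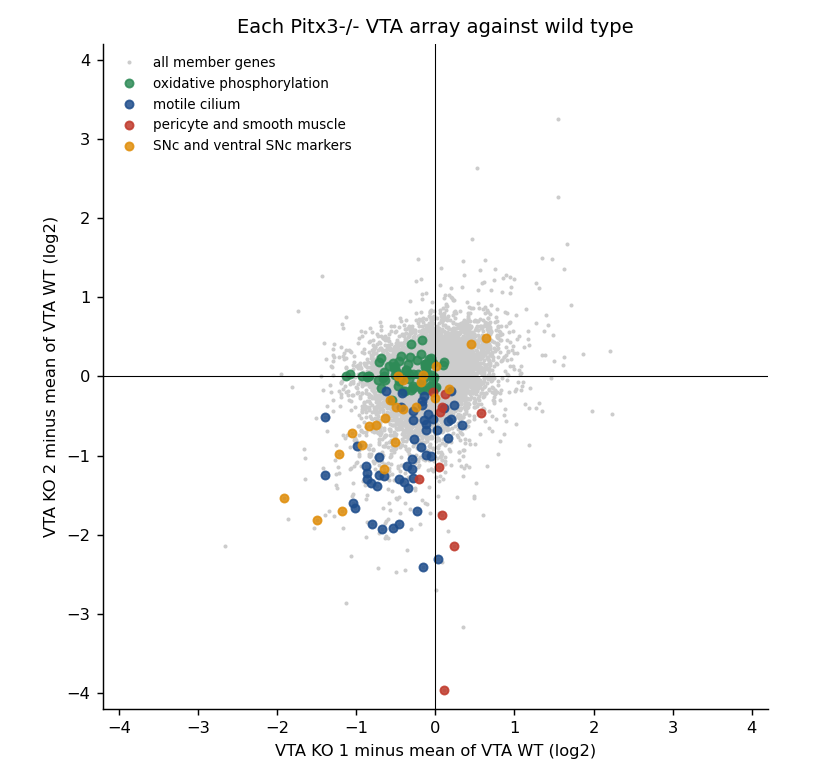
Difference of each member gene from the mean of the VTA WT arrays in VTA KO 1 (horizontal axis) and in VTA KO 2 (vertical axis), on the log2 scale. Both axes share the VTA WT arrays. Pericyte and smooth muscle genes lie between -0.21 and 0.58 for VTA KO 1 and reach down to -3.96 for VTA KO 2, oxidative phosphorylation genes spread to the left along 0 for VTA KO 2, and most SNc and ventral SNc markers are below 0 in both.

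Motile cilium genes, which build the beating cilia of ependymal cells lining the ventricles, were by number the fixed list with the most genes called lower. Of 52 members both VTA KO arrays lay below both VTA WT arrays in 34 and above them in 0, against 22.9% and 16.4% of all member genes. Of the 276 genes called lower 23 were of this list. These were 23 of its 52 members, against 2.11% of all member genes. The shorter list of SNc and ventral SNc markers had 10 of 24 called lower. Of the 52 members 44 were over the minimum in both groups, and the others passed it only through VTA WT, where they were higher. Spag17, 1700012B09Rik, Wdr63, Sntn and Zmynd10, all called lower, were among these others. Without VTA KO 1 there were 34 called, without VTA KO 2 there were 14 and without VTA WT 1 there were 11. The median over the 57 measured genes was -0.55, and over the members it was -0.29 in VTA KO 1 and -1.0 in VTA KO 2. Rsph1, a radial spoke protein, was at 9.78 and 9.37 in VTA WT, 9.03 in VTA KO 1 and 7.66 in VTA KO 2. Dynlrb2, a dynein light chain, was at 8.89 and 9.20 in VTA WT, 8.00 in VTA KO 1 and 7.44 in VTA KO 2 (adjusted p = 0.190). Mlf1, another listed gene, was at 7.38 and 7.35 in VTA WT, 6.38 in VTA KO 1 and 6.49 in VTA KO 2 (adjusted p = 0.151). Foxj1, the master regulator of motile cilia, was low throughout, with 6.35 and 6.30 in VTA WT and 6.16 and 6.01 in VTA KO. In most of these genes VTA KO 2 was the lower of the pair, as it was for 46 of the 52, against 6454 of all 13059 member genes. The summed linear signal of the list was 14199 and 11842 in VTA WT, 9259 in VTA KO 1 and 6158 in VTA KO 2, and it lay between 4072 and 4679 in the 4 SNc arrays.

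Of 19 astrocyte and radial glia genes 15 lay below and 1 above, against 22.9% and 16.4% of all member genes, with 5 called lower, against 2.11%. Without VTA KO 1 there were 9 called, without VTA KO 2 there were 2, and without VTA WT 1 there were 3. Mlc1, a membrane protein of astrocyte endfeet, was at 8.65 and 8.67 in VTA WT, 7.94 in VTA KO 1 and 6.67 in VTA KO 2. Slc1a2, the glutamate transporter, was at 8.17 and 8.11 in VTA WT, 7.22 in VTA KO 1 and 7.44 in VTA KO 2 (adjusted p = 0.185). Their summed signal was 11426 and 10334 in VTA WT, 9088 in VTA KO 1 and 5757 in VTA KO 2. Of 10 oligodendrocyte genes 6 lay below and 0 above, against 22.9% and 16.4% of all member genes. Their sums were 884 and 848 in VTA WT and 782 and 674 in VTA KO. Of the 10 genes 7 were over the minimum in both groups. Mag and Ugt8a, the 2 called lower, passed it only through VTA WT, where they were higher. The sum of 18 general neuronal genes was 25656 and 25147 in VTA WT and 26338 and 27305 in VTA KO. Of these genes 8 lay above and 1 below, against 16.4% and 22.9% of all member genes. The parts of these cell types in the counts of called genes were not tested. With all genes of the listed ciliated, choroid plexus, glial, vascular, blood and dividing cells left out, 114 genes were called higher and 244 lower. Genes of these cell types that are on no list stayed in, so these counts do not measure the parts.

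**Figure D3:**
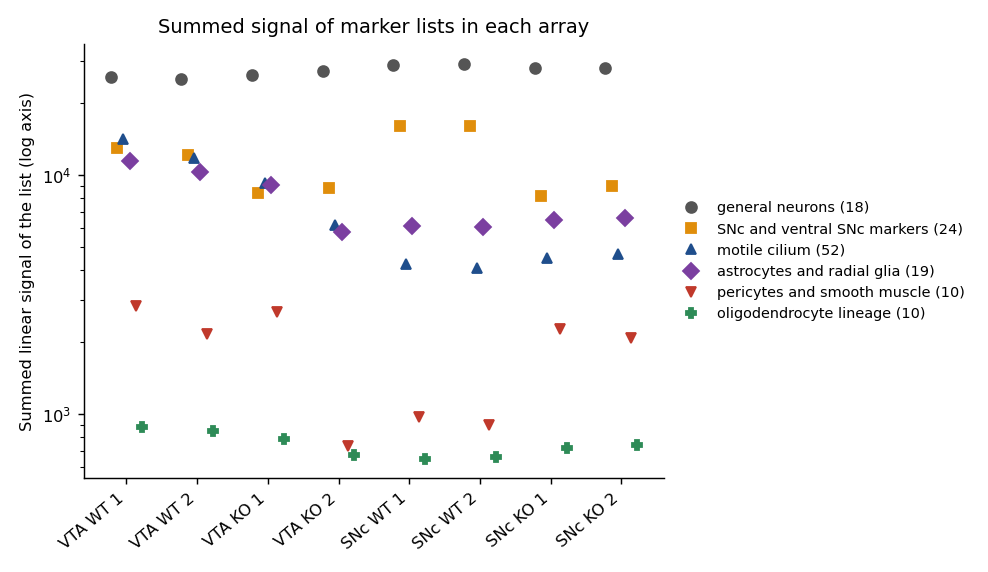
Summed linear signal of marker lists in each of the 8 arrays, on a log axis, with the number of member genes of each list in the legend. The motile cilium and astrocyte lists are highest in the VTA WT arrays and read in descending order VTA WT, VTA KO 1, VTA KO 2, whereas the pericyte list is low in VTA KO 2 and in both SNc WT arrays. The SNc and ventral SNc markers are lower in both VTA KO arrays, with sums of 8416 and 8795 against 13012 and 12101.

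Other lists showed smaller or no common shifts, and their counts stand beside the 16.4% above and 22.9% below of all member genes. Of 24 immediate early and stress genes 9 lay below and 2 above, with Hspa1a, an inducible heat shock protein, at 8.95 and 8.58 in VTA WT and 8.16 and 7.48 in VTA KO. Of 36 neurotrophic and growth factor genes 14 lay below and 8 above. Ret, the receptor for GDNF family ligands, was at 9.01 and 8.84 in VTA WT and at 9.34 and 9.51 in VTA KO, while its co-receptor Gfra1 was at 9.12 and 9.19 in VTA WT and at 8.79 and 8.89 in VTA KO. Of 23 apoptosis and p53 response genes 3 lay below, 3 above and 0 were called. Of 13 familial Parkinson disease genes 5 lay below and 3 above, with 0 called, and Pink1, a mitochondrial kinase, read 6.28 and 6.38 in VTA WT and 5.96 and 6.13 in VTA KO. The 23 genes for voltage-gated sodium, calcium and HCN channels had 9 above and 5 below, and the 47 potassium channel genes had 13 above and 9 below.

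**Figure D4:**
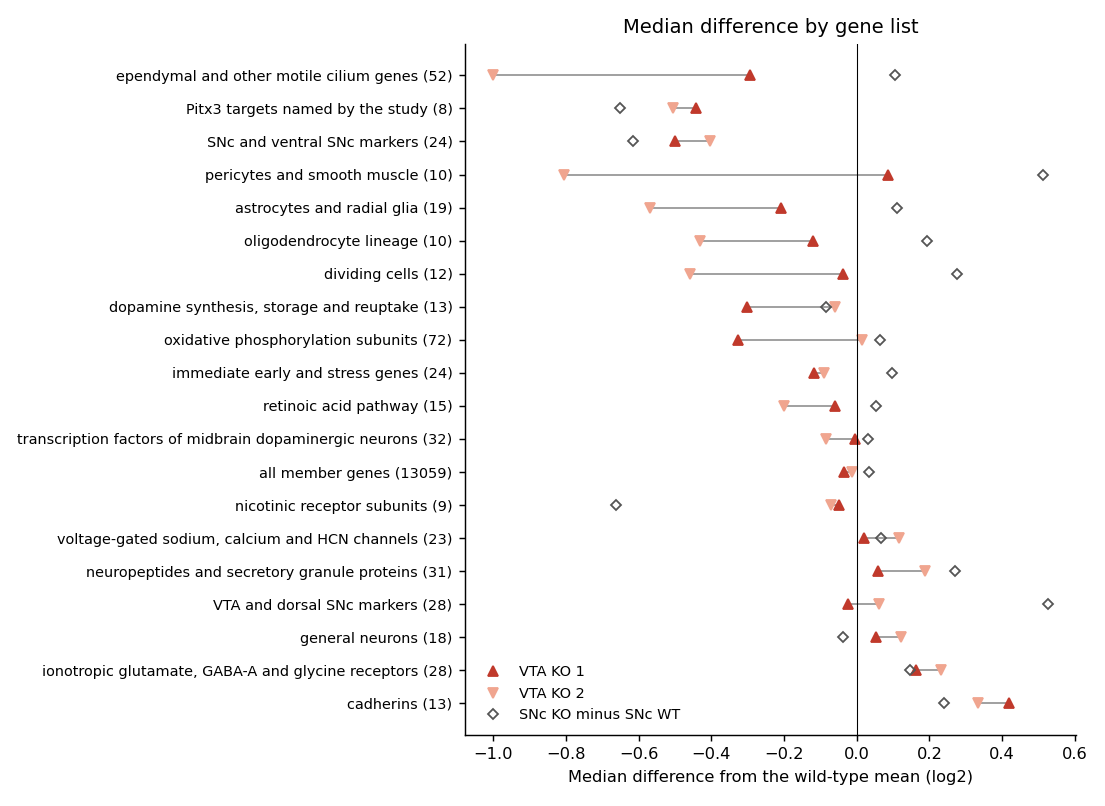
Median difference from the wild-type mean of the member genes of each list (log2), with triangles for VTA KO 1 and VTA KO 2 and open diamonds for SNc KO minus SNc WT, and the number of members in brackets. The VTA KO arrays are close for the SNc and ventral SNc markers (-0.50 and -0.40) and far apart for pericyte and smooth muscle genes (0.087 and -0.80).

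The effect in VTA was set against that in SNc, the region that loses neurons in Pitx3-/- mice, through the difference between the knockout effects. At an adjusted p under 0.05, 0 of the 22112 probesets differed (0.0%, smallest adjusted p = 0.0995), while 2186 had an unadjusted p under 0.05. Leaving out VTA KO 1 gave 15 instead of 0. The lowest p was that of Postn, which read 5.52 and 5.33 in SNc WT and 8.58 and 8.80 in SNc KO. The SNc WT values are under the signal minimum, so the size of its difference in SNc rests on a dim probeset. The difference was 0.64 in VTA and 3.26 in SNc (adjusted p = 0.0995 for the difference between them). Car4 was -1.73 in VTA and 0.39 in SNc, where it read 6.36 and 6.29 in WT and 6.70 and 6.73 in KO (adjusted p = 0.145). Grp was -0.88 in VTA and 0.48 in SNc, Nts -1.34 and 1.04, and Crh -1.08 and 1.39, each with an adjusted p of 0.145. The VTA KO means of Nts and Crh were under the signal minimum. Aldh1a7 and Sox6 were lower in both regions, with differences of -0.90 and -0.44 in VTA and of -2.52 and -1.41 in SNc (adjusted p = 0.241 and 0.270).

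Of the 115 genes called higher in VTA KO, 45 were also called higher in SNc KO, which is 39.1% of these and 17.4% of the 258 member genes called higher in SNc KO, where 1.98% of all member genes were called higher. Of the 276 called lower, 27 were also called lower in SNc KO, which is 9.78% of these and 20.5% of the 132 called lower in SNc KO, where 1.01% of all member genes were called lower. In the opposite direction, 2 of the 115 were called lower in SNc KO, where 1.01% of all member genes were. Of the 276, 14 were called higher in SNc KO, where 1.98% of all member genes were. The sign in SNc was the same for 90 of the 115 and for 118 of the 276. The 2 comparisons share no arrays but share the estimate of spread. Fgf10, Fst, Kcnk9, Sulf1, Grm8 and Cdh7 were higher in both regions, and Rgs6, Aldh1a1 and Slc6a3 lower in both. In SNc, Fgf10 read 6.41 and 6.16 in WT and 8.14 and 8.38 in KO, and Rgs6 read 8.80 and 8.59 in WT and 6.44 in both KO arrays. The median of the genes called lower in VTA KO was 0.065 in SNc, and that of the genes called higher was 0.41.

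**Figure D5:**
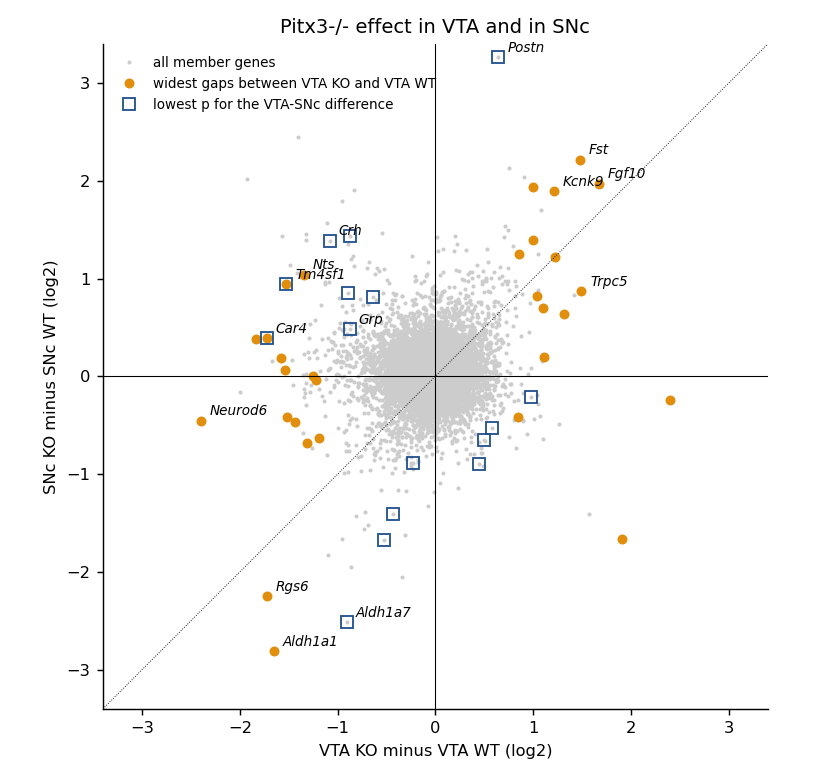
Difference between Pitx3-/- and wild type in VTA (horizontal axis) and in SNc (vertical axis) for each member gene, log2 scale, with a dotted line where both are equal. Filled circles are the genes with the widest gaps between the VTA KO and VTA WT arrays, and open squares those with the lowest p for the difference between the regions. Fst, Fgf10, Rgs6 and Aldh1a1 lie in the same direction in both regions, while Car4 lies far from the dotted line, at -1.73 in VTA and 0.39 in SNc. Neurod6, at -2.40 in VTA, was under the signal minimum in all 4 SNc arrays.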

How the data were processed

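RNA of sorted EGFP+ cells was hybridised to 8 Affymetrix Mouse Gene 1.0 ST arrays, with duplicates for each region (VTA or SNc) and genotype. The deposited values are log2 signals that the authors summarised and normalized with RMA (RMA Express by the methods). Its version is not given in the sources used here, nor is a genome build. Symbols came from the platform annotation. Array number limits the precision, and depth does not apply.

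limma 3.58.1 in R 4.3.3 was run on the 8 arrays, a mean for each of the 4 groups (4 residual and 2.4 prior degrees of freedom), over 22112 probesets with a linear mean of at least 60 in 1 of the 4 groups. The local pooled error test of the methods was not run here, and its thresholds were applied with limma's p. The fit was tested on simulated data. Alternatives changed the signal filter, the arrays, the normalization, the variance model, the array weights and the replicate block, and left out each array in turn.

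The members, gene lists and tests were chosen with earlier results of these data known. Named genes were the 15 widest gaps between VTA KO and VTA WT arrays in each direction at an unadjusted p under 0.05, the 10 with the widest disagreement of the VTA KO arrays in each direction, up to 8 lowest p-values of each list with a fixed set of Pitx3, dopamine and subset genes, the 8 lowest p-values in each direction for the difference between regions, and those with an adjusted p under 0.05. Ccdc187, Foxs1, Slc6a4, Tph2, Dbh, Pdgfrb, Des and Cnn1 are named as threshold or marker checks. Of 754 genes with several member probesets, 265 had probesets of both signs. Promoter windows are from RefSeq (GRCm38). Tables were handled with pandas.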

Additional observations from a re-analysis of the deposited data

Results flagged for a closer look

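In 15 named genes both VTA KO arrays lay on one side of both VTA WT arrays while both SNc KO arrays lay on the other side of both SNc WT arrays. The share of all member genes with this pattern was not counted. The named genes include those with the lowest p for the difference between regions, so opposite directions were partly fixed by the choice. The difference between the knockout effects (VTA minus SNc, log2) is given with its adjusted p, and none passed 0.05 in limma. Where both VTA KO arrays were lower and both SNc KO arrays higher, it was -2.11 for Car4, -2.47 for Tm4sf1, -2.31 for 1700028P14Rik, -1.36 for Grp, -1.75 for Spa17 and -1.45 for Katnal2 (adjusted p = 0.145 each). It was -1.76 for Mgst1, -2.38 for Nts and -2.47 for Crh (adjusted p = 0.145 each), whose VTA KO means were under the signal minimum. Where VTA KO was higher and SNc KO lower, it was 3.57 for Olfr1045 (adjusted p = 0.352), 1.34 for Rbm11 (0.227), 1.15 for Disp3 (0.241), 1.18 for Snora52 (0.307), 1.11 for Usp46 (0.316) and 0.41 for En1 (0.487). Olfr1045 belongs to a multigene family whose members may share probes, and a second member probeset of Disp3 read the other way in VTA, at -0.17. Groups of 2 arrays are too small for a check of single outlying arrays.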

How the results depend on the processing

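The count of probesets at an adjusted p under 0.05 in VTA KO against VTA WT, 2 as reported, was 0 with array weights, with the VTA arrays alone, with no signal filter, with a variance trend and with the replicate block. It was 10 with median subtraction (7 higher, 3 lower) and with the filter on the VTA groups only (7 and 3), 8 with quantile normalization (5 and 3) and 7 with the filter at 100 (5 and 2). With each array left out it ran from 0 to 69. At the thresholds of the study the counts ran from 109 to 274 higher and from 255 to 619 lower with 1 array left out. The other alternatives kept both within 1.5 times. With the filter at 100, 1933 genes had both VTA KO arrays below both VTA WT arrays. The difference between the regions gave from 0 to 15 probesets with 1 array left out and 0 otherwise. Of 46 named genes 44 kept their direction in every alternative that tested them, 17 for most and 16 for those that the filter at 100 left out. The exceptions were Kcnj6, from -0.47 to 0.0037 with 1 VTA array left out (0.0037 without VTA KO 1), and Pitx3, from -0.10 to 0.16 (-0.050 without VTA KO 1 and -0.10 without VTA WT 2). The cause was not tested. Same-numbered arrays did not deviate together (correlations of 0.0058 to 0.098). The values thus gave no sign of pairing by number, but they cannot show whether same-numbered samples were prepared together. With the replicate block 122 genes were higher and 291 lower at the thresholds of the study. Quantile normalization and median subtraction moved the median difference of the member probesets from -0.033 to -0.018 and -0.0081.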
